A study of Homo sapiens with 6 samples.

Results

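The genes described here are 10 immune surface and polarization genes: VSIR, CD276 and CD80 of the B7 family, CD40 and TNFRSF14 of the tumour necrosis factor (TNF) receptor superfamily, CD47, PVR and NECTIN2, the lysosomal membrane gene LAMP3 and the cytokine gene IL23A. They were taken by gene name from a deposited table of 28847 genes, and all 10 were found. The names were chosen by measured values, with the difference between the groups compared here in view, so every value of this comparison for these 10 genes is a description with no test. The 6 libraries hold polyadenylated RNA of cells labelled THP-1, a human monocytic leukaemia line: 3 of THP-1 alone, the control, and 3 of THP-1 with recombinant human RBP4, the plasma carrier of retinol. The series describes an M0 (unpolarized) macrophage model, and no dose, time or differentiating agent is given. The labels do not say that libraries of a group came from separate cultures, so the p-values below measure the spread between these libraries, which may be technical.

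The total was 15202000 to 16420517 reads per library, recovered from normalized values, and 3 reads, the most that a listed 0 allows, equalled 0.183 to 0.197 CPM (reads scaled by the library total); such limits cover counting error only. The markers did not match the label. Of 20 monocyte and macrophage genes analysed, 4 (FCGR2A, CD33, SPI1 and CTSS) reached 10 CPM in all 6 libraries, against 19 of 24 erythroid genes. The summed level of the monocyte list was 231 to 236 CPM in the control and 238 to 249.5 CPM in the RBP4 libraries, and that of the erythroid list 3377 to 3393 and 3022 to 3089 CPM. TFRC, the transferrin receptor, carried the lower erythroid sum, at 901 ± 15.4 and 483 ± 15.0 CPM. Without TFRC, chosen after its values were seen, the other 23 genes summed to 2474 to 2495 CPM in the control and 2550.03 to 2589 CPM in the RBP4 libraries, with 12 means higher and 11 lower. The megakaryocyte and platelet list summed to 27.3 to 28.1 and 39.6 to 46.3 CPM over 6 genes analysed, mostly ITGA2B (15.9 ± 1.25 and 27.2 ± 3.72 CPM). In the squamous and epithelial list, 4 of 7 genes analysed reached 10 CPM (EPCAM, KRT8, KRT18 and KRT19), with a sum of 558 to 580 CPM in the control and 495 to 520 CPM in the RBP4 libraries. The part of these differences in the results below was not tested. With bulk RNA, fewer cells that express a gene and less RNA per cell cannot be told apart.

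T cells read a pair of signals on a partner cell: the antigen, and co-signals from surface proteins of the immunoglobulin and TNF receptor families that either license or restrain the response. CD80 engages CD28 or CTLA4, VISTA (the product of VSIR) and B7-H3 (the product of CD276) are mainly described as restraining, and CD40 on antigen-presenting cells receives CD40 ligand from T cells. CD47 binds SIRP alpha on phagocytes and holds back engulfment, while PVR and nectin-2 are read by the activating receptor CD226 and the inhibitory receptor TIGIT. LAMP3 marks mature dendritic cells, and IL23A encodes the p19 subunit that joins IL12B to form interleukin-23, a product of inflammatory macrophages.

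RefSeq promoter windows (GRCh38.p14) were available for 8 of the 10 genes, all but CD40 and LAMP3. The 250 bases before the start are shown for VSIR and IL23A, which had the largest fold differences, and for CD47, an abundant gene with a small one. In VSIR and IL23A the capitals mark matches to the kappaB site, with those to the SP1 motif GGGCGG in VSIR, and to the AP-1 motif TGANTCA and the TATA box TATAAA in IL23A. The SP1 matches of IL23A are left in lower case. In CD47 the capitals mark SP1 matches, the first pair of which overlap.
VSIR, chr10:71773521-71773770, minus strand: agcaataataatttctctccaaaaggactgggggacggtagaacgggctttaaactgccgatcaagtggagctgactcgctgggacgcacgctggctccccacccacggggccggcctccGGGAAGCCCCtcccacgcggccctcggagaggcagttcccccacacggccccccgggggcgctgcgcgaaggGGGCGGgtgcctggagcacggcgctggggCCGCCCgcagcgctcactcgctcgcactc
IL23A, chr12:56338634-56338883, plus strand: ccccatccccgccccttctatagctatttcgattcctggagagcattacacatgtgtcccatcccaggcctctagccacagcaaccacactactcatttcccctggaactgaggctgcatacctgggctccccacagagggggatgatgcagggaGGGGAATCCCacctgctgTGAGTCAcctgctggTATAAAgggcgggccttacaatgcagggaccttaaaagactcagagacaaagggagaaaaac
CD47, chr3:108091032-108091281, minus strand: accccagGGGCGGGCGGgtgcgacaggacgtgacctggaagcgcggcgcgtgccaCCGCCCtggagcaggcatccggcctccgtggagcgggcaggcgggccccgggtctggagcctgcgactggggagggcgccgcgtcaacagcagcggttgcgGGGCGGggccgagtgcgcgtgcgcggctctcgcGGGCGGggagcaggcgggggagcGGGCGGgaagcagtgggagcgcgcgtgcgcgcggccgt

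Both strands were searched in each window. The kappaB site matched in windows of 4 of the 8 genes (VSIR, IL23A, TNFRSF14 and CD276) and in 9.96% of all 35116 windows. TNFRSF14 held 3 overlapping matches, in a window whose 250 bases all lie in annotated exons. CD276 has 2 windows, and its match lies in the one that is wholly CD276 exon. GC was 69.6% in the VSIR window, 54.8% in IL23A, 58.8% in TNFRSF14 and 77.2% in that CD276 window, and the median of all windows was 58%. The part of base composition in these matches was not tested. In IL23A the kappaB match began 95 bases before the start, the AP-1 match 77 and the TATA box 62 bases before it. Of the 8 genes, only IL23A held an AP-1 match (6.57% of all windows) or the TATA box (10.7%). The SP1 motif was found for 5 of the 8 genes (VSIR, IL23A, CD47, CD276 and NECTIN2) and in 42.6% of all windows. The hypoxia response core ACGTG matched in CD47 and CD276 (18.5% of all windows) and the CCAAT box CCAAT in CD276 (32.01%). None of the 8 genes held the ATF4 composite element TGATGNAA, the CRE TGACGTCA, the E-box CACGTG, the GATA motif AGATAA, the ETS core CCGGAAG, the XBP1 element TGACGTGG, the interferon response element (ISRE) or the ERSE. By construction the E-box and XBP1 motifs hold the hypoxia core, and the ERSE holds CCAAT. The CD80 and PVR windows held none of the motifs searched. These matches describe letters in the windows, not bound sites.

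Across the 10 genes, 9 had a higher mean in the RBP4 libraries, and for 8 of them every RBP4 library lay above every control library. Of all 15676 genes tested, 27.3% had such a gap upward and 28.9% downward. The 4 genes with at least a 2-fold higher mean were VSIR, IL23A, CD40 and LAMP3. CD80 and NECTIN2 had overlapping groups. The median log2 fold change of the 10 genes was 0.47, and that of all genes tested was -0.0021. A log2 fold change here is on the log2(value + 1) scale, which understates changes of low genes, and SE is its standard error. All 10 genes had over 10 normalized reads in every library, so none entered the fit through 1 group alone. Of the 10, 8 averaged 25 to 500 normalized reads, and among all 6764 tested genes of that abundance 31.4% were raised and 13.3% lowered, with a median of 0.10.

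**Figure D1:**
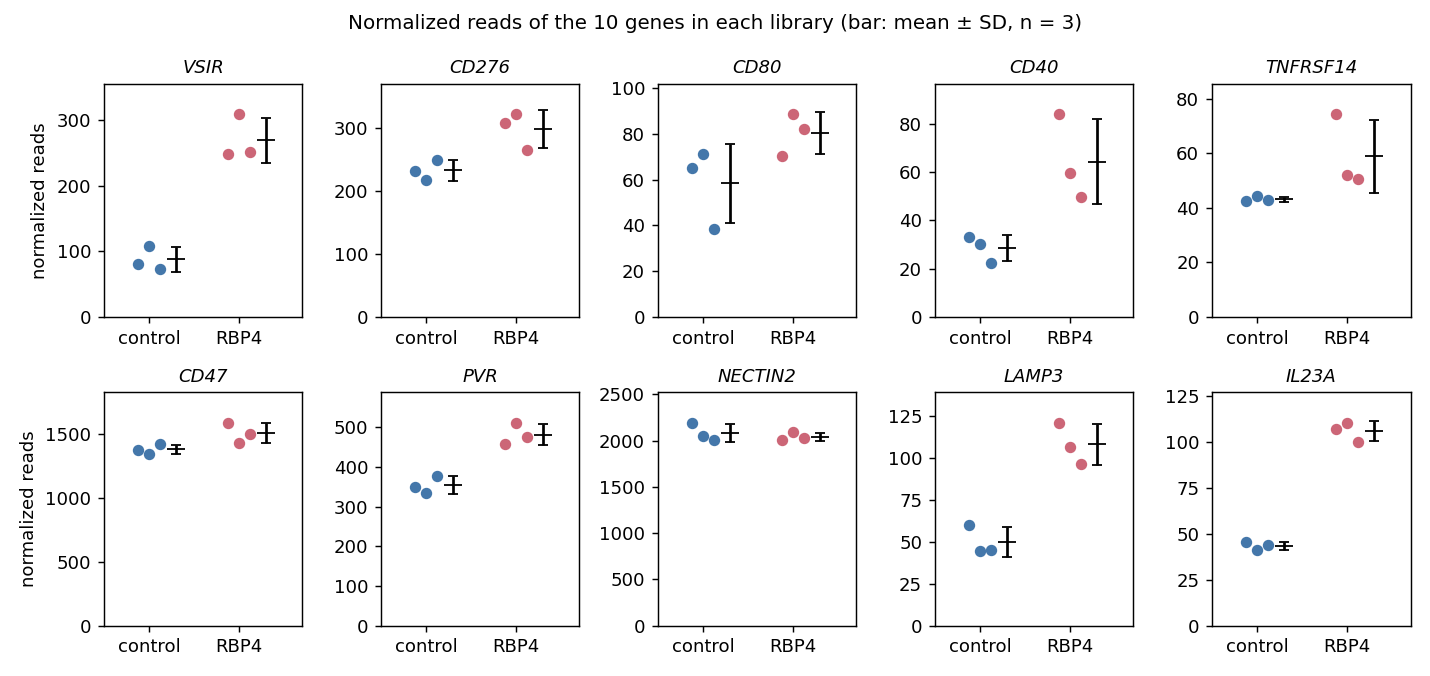
Normalized reads (vertical axes, from 0) of the 10 genes in each of the 3 control and 3 RBP4 libraries, with the mean and SD beside the points. The groups overlap for CD80 and NECTIN2, and VSIR shows the widest separation, 87.4 against 269 on average.

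**Figure D2:**
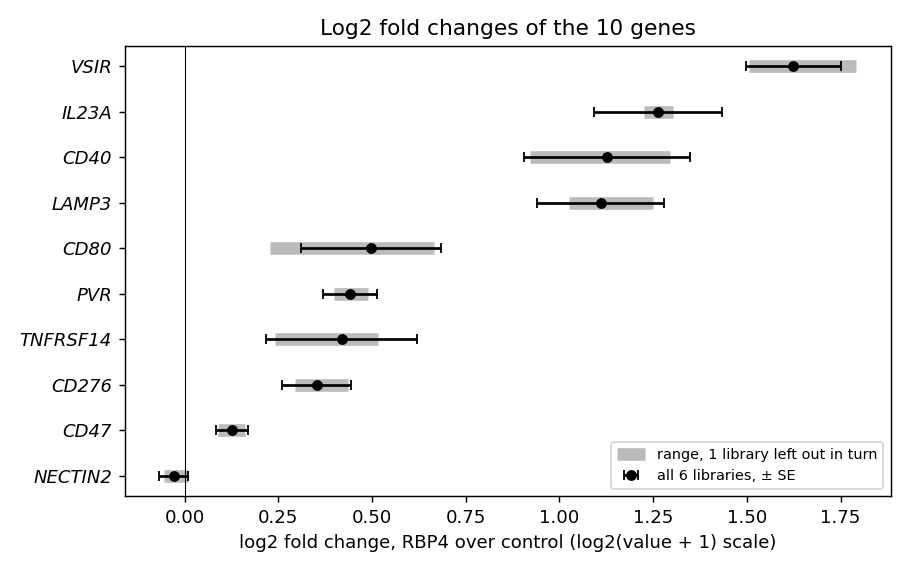
Log2 fold change of each gene, RBP4 over control, with its SE (points and bars) and the range when 1 library at a time is left out (grey). VSIR stands highest at 1.62, CD80 has the widest grey range, from 0.23 to 0.66, and NECTIN2 spans 0.

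Among the B7 family genes, VSIR differed most between the groups. VSIR (ENSG00000107738, chromosome 10, 71747559 to 71773498 on GRCh38) encodes VISTA, an immunoglobulin-domain protein of myeloid and T cells. It had 80.7, 109 and 72.8 normalized reads in control libraries 1, 2 and 3, and 247, 309 and 251 in RBP4 libraries 1, 2 and 3. The lowest RBP4 library was above 2 times the highest control library. The means were 87.4 ± 18.8 and 269 ± 34.5 (SD, n = 3 per group), a 3.08-fold higher level with RBP4 and a log2 fold change of 1.62 (SE 0.13). It ranked 155 of the 15676 genes tested by log2 fold change. VSIR lies within CDH23, a cadherin gene on the opposite strand, and shares no exon base with it. CDH23 had 3.44 ± 1.49 and 9.54 ± 0.843 normalized reads, far under the level of VSIR.

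CD276 (ENSG00000103855, chromosome 15, 73683966 to 73714518) encodes B7-H3, which is widely expressed on tumour cells. Its control libraries had 233, 217 and 251 normalized reads and its RBP4 libraries 308, 323 and 266. The groups did not overlap, though RBP4 library 3 was close to control library 3. The means were 234 ± 16.6 and 299 ± 29.5, a 1.28-fold difference (log2 fold change 0.35, SE 0.092).

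CD80 (ENSG00000121594, chromosome 3, 119524293 to 119559602) encodes B7-1. It had 65.2, 71.4 and 38.5 normalized reads in the control libraries and 70.6, 88.8 and 82.0 in the RBP4 libraries. Control library 3 was low, and RBP4 library 1 lay under control library 2, so the groups overlapped. The log2 fold change was 0.50 (SE 0.19), and 0.23 without control library 3. Of the exonic bases of CD80, 798 (24.9%) are shared with exons of TIMMDC1, a gene of respiratory complex I assembly on the opposite strand, and the library kit does not mark strand. TIMMDC1 was far more abundant and also higher with RBP4 (775 ± 18.96 and 893 ± 31.998 normalized reads; log2 fold change 0.20; limma's moderated test, Benjamini-Hochberg adjusted p = 0.00092). The part of TIMMDC1 reads in the CD80 values was not tested.

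Of the other B7 and butyrophilin genes, 15 were analysed and 8 tested: 6 rose, 1 fell and 1 missed an adjusted p of 0.05 in limma's test (median log2 fold change of the list 0.27), where 24.5% of all genes tested were raised and 26.1% lowered. The shares of 24.5% and 26.1% are the background for the list counts below that use the deposited scaling. List counts with the libraries scaled to total reads have another background: 4819 genes raised and 2990 lowered, against 3838 and 4096. Raised genes made up 48.4% of all calls, or 61.7% under scaling to total reads. ICOSLG, the ligand of the co-stimulatory receptor ICOS, rose 1.78-fold, from 48.2 ± 10.2 to 85.9 ± 4.10 normalized reads (limma adjusted p = 6.6e-05). BTN2A2, a butyrophilin that restrains T cells, rose 1.34-fold, from 435 ± 8.83 to 583 ± 15.2 (limma adjusted p = 1.1e-07). BTNL9, a butyrophilin-like gene, was the one that fell, 1.41-fold, from 1844 ± 95.2 to 1307 ± 28.5 (limma adjusted p = 3.4e-16). CD86, the partner of CD80 in engaging CD28, and CD274, which encodes PD-L1, averaged 0.69 and 2.10 normalized reads in the control libraries and 0.315 and 3.18 in the RBP4 libraries, and were too low to be tested.

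The TNF receptor genes CD40 and TNFRSF14 were both low. CD40 (ENSG00000101017, chromosome 20, 46118272 to 46129863) had 33.1, 30.2 and 22.5 normalized reads in the control libraries and 84.1, 59.5 and 49.6 in the RBP4 libraries. Every RBP4 library was above the controls, with RBP4 library 1 the highest. The mean was 2.25-fold higher (28.6 ± 5.49 and 64.4 ± 17.8; log2 fold change 1.13, SE 0.22). TNFRSF14 (ENSG00000157873, chromosome 1, 2555639 to 2565382) encodes HVEM, which binds LIGHT (TNFSF14) as well as BTLA. Its control libraries had 42.4, 44.3 and 42.8 normalized reads and its RBP4 libraries 74.4, 51.9 and 50.6. The difference rested largely on RBP4 library 1: the log2 fold change of 0.42 (SE 0.20) was 0.24 without it. TNFRSF14 shares 831 exonic bases (13.4%) with its antisense gene TNFRSF14-AS1, which had 7.56 ± 3.11 and 14.6 ± 6.00 normalized reads, and the strands are not separated.

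Of the other TNF receptor genes, 21 were analysed and 11 tested: 5 rose, 3 fell and 3 missed the threshold (median 0.084), or 6 and 1 with the libraries scaled to total reads. TNFRSF9, the co-stimulatory receptor 4-1BB, rose 4.20-fold, from 53.9 ± 3.55 to 226 ± 21.9 normalized reads (limma adjusted p = 4.4e-21), a larger fold than that of any of the 10 genes. Its ligand TNFSF9 was the only TNF ligand gene past the threshold among 6 tested, and it fell 1.52-fold, from 944 ± 38.6 to 622 ± 37.8 (limma adjusted p = 1.1e-14). The other 5 missed the threshold, and the median log2 fold change of the 6 was 0.50, upward. Without control library 3, 3 of the TNF ligand genes passed. In that fit TNFSF9 was lower (log2 fold change -0.57) and TNFSF14 higher (1.06). TNFRSF10B, the TRAIL receptor DR5, rose 1.42-fold (limma adjusted p = 7.3e-15), and TNFRSF21, the death receptor DR6, rose 1.39-fold (limma adjusted p = 0.0015).

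CD40 and HVEM signal through TRAF adaptors to the NF-kB factors. Of 23 tested genes of this relay, 11 rose, 6 fell and 6 missed the threshold (median 0.087), or 12 and 5 with the libraries scaled to total reads. TNFAIP3 (A20), which shuts NF-kB signalling down again, was 2.92-fold higher, at 139 ± 22.2 and 405 ± 12.9 normalized reads (limma adjusted p = 2.3e-21), and BIRC3, an inhibitor of cell death bound by TRAF2, rose 2.33-fold, from 115 ± 19.6 to 269 ± 36.5 (limma adjusted p = 2.2e-13). RELB, the partner of p52 in the pathway that CD40 engages, rose 1.99-fold, from 34.1 ± 5.51 to 67.7 ± 11.7 (limma adjusted p = 5.9e-05). Chosen after their values were seen, the adaptors TRAF2, TRAF3 and TRAF6 were among the genes that fell, by 0.21, 0.19 and 0.24 on the log2 scale, and fell under every scaling tried.

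CD47 (ENSG00000196776, chromosome 3, 108043094 to 108091862) was abundant and differed little. It had 1372, 1346 and 1420 normalized reads in the control libraries and 1587, 1431 and 1501 in the RBP4 libraries. The lowest RBP4 library lay just above the highest control library. The mean was 9.22% higher (log2 fold change 0.13, SE 0.044), or 0.19 on the log2 scale with the libraries scaled to total reads. Of 15 other tested genes of the do-not-eat-me and phagocytosis list, 7 rose, 5 fell and 3 missed the threshold (median 0.42), or 7 and 4 with the libraries scaled to total reads. CD24, another surface signal that holds back macrophages, fell 2.21-fold, from 747 ± 35.0 to 339 ± 24.9 normalized reads (limma adjusted p = 8.1e-24). LRP1, a receptor that drives uptake of cells showing calreticulin, rose 1.86-fold, from 458 ± 36.5 to 851 ± 17.5 (limma adjusted p = 1.3e-20). CD24 has near-identical copies elsewhere in the genome, so its reads are uncertain.

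PVR and NECTIN2 belong to 1 family, share receptors and lie 183 kb apart on chromosome 19, and they differed in pattern. PVR (ENSG00000073008, 44643798 to 44663583) had 350, 335 and 378 normalized reads in the control libraries and 457, 511 and 476 in the RBP4 libraries. The groups stood clearly apart, at 354 ± 21.8 and 481 ± 27.2, a 1.36-fold difference (log2 fold change 0.44, SE 0.073). NECTIN2 (ENSG00000130202, 44846175 to 44889228) had 2193, 2054 and 2008 normalized reads in the control and 2005, 2091 and 2031 in the RBP4 libraries. Its groups overlapped, with a log2 fold change of -0.029 (SE 0.038) that turned to 0.0081 without control library 1 and to 0.039 under scaling to total reads. The difference between the PVR and NECTIN2 changes was not tested. PVR shares 121 exonic bases (3.44%) with CEACAM19 and NECTIN2 shares 128 (3.42%) with an antisense gene. CEACAM19 stood at 9.66 ± 1.39 and 23.3 ± 4.99 normalized reads, and the antisense gene under 1 in each group.

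Of the other nectin and PVR family genes and receptors, 8 were analysed and 3 tested: 2 rose, 0 fell and 1 missed the threshold (median 0.38). For the 1 that missed it, every RBP4 library lay under every control library. CADM4, an adhesion molecule, rose 1.31-fold, from 93.0 ± 8.52 to 122 ± 11.4 normalized reads (limma adjusted p = 0.019), a call lost under DESeq2 (0.059) and on leaving out control library 1 (0.083), RBP4 library 2 (0.058) or RBP4 library 3 (0.098); its alternatives ran from 0.0057 to 0.098. CD226, the activating receptor for PVR and nectin-2, was very low, at 4.83 ± 2.13 and 20.4 ± 2.27 normalized reads. It met the filter on low values only through the RBP4 libraries, so it had to differ once it entered, and its place among the raised genes is no support. The count of 2 raised genes, CD226 among them, was 1 without RBP4 library 1, and 0 without RBP4 library 2 or RBP4 library 3, where CD226 no longer met the filter on low values. NECTIN1, NECTIN3 and NECTIN4 averaged under 3 normalized reads in each group.

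LAMP3 (ENSG00000078081, chromosome 3, 183122213 to 183163839) had 60.0, 44.3 and 45.0 normalized reads in the control libraries and 121, 107 and 96.3 in the RBP4 libraries. All RBP4 libraries were above the controls, and the mean was 2.17-fold higher (49.8 ± 8.90 and 108 ± 12.3; log2 fold change 1.11, SE 0.17). Its relatives LAMP1 and LAMP2, general lysosomal membrane proteins, were much more abundant. Chosen after its values were seen, LAMP1 fell 1.24-fold, from 1068 ± 38.5 to 861 ± 23.8 normalized reads (limma adjusted p = 3.2e-07), while LAMP3 was higher. Of 8 tested genes of the LAMP and dendritic cell maturation list, 3 rose, 4 fell and 1 missed the threshold (median -0.11), or 4 and 4 with the libraries scaled to total reads. BIRC3 and RELB, given above, were 2 of those that rose, and the ubiquitin ligase gene MARCHF1, listed as MARCH1, fell 1.52-fold, from 510 ± 21.9 to 336 ± 9.49 (limma adjusted p = 9.0e-11). Of 12 dendritic cell markers, 4 were analysed and none reached 10 CPM in all 6 libraries. Their sum was 9.44 to 12.1 CPM in the control and 15.7 to 19.3 CPM in the RBP4 libraries, nearly all of it CD83 (7.87 ± 0.791 and 11.7 ± 1.81 CPM) and BATF3 (2.94 ± 0.665 and 5.32 ± 0.882 CPM). CCR7 was at 0.151 and 0.554 CPM, and IRF8 at 0.0426 CPM in the control and 0 in the RBP4 libraries. Their part in the LAMP3 values was not tested.

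IL23A (ENSG00000110944, chromosome 12, 56334174 to 56340410) was the most tightly grouped of the genes that were 2-fold or more higher. It had 45.5, 41.3 and 43.9 normalized reads in the control libraries and 107, 110 and 100.2 in the RBP4 libraries. The mean was 2.43-fold higher (43.6 ± 2.16 and 106 ± 5.29; log2 fold change 1.26, SE 0.17). Its partner subunit gene IL12B was not analysed here, so the pair that makes up interleukin-23 could not be followed. Of 12 other tested genes of the IL-12 and IL-23 family, with receptors and relay kinases, 3 rose, 2 fell and 7 missed the threshold (median 0.11), or 4 and 1 with the libraries scaled to total reads. IL12RB2, a chain of the interleukin-12 receptor, rose 1.62-fold, from 93.1 ± 9.13 to 151 ± 19.7 normalized reads (limma adjusted p = 1.7e-05). IL6ST, the shared receptor chain gp130, rose 1.28-fold, from 656 ± 9.96 to 837 ± 43.5 (limma adjusted p = 2.5e-07).

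Most direct binding partners of the 10 genes were low in the libraries of both groups. Of 22 partners listed, 17 were analysed and 8 tested: 3 were past the threshold upward, none downward, and 5 missed it (median 0.52). The 3 included CD226, which entered through the RBP4 libraries alone as given above; the others were SELPLG and THBS1. SELPLG, which encodes the VISTA ligand PSGL-1, rose 1.54-fold, from 46.0 ± 12.03 to 70.7 ± 5.32 normalized reads (limma adjusted p = 0.0043; 0.051 without control library 2, with alternatives from 0.00064 to 0.051). THBS1, thrombospondin-1, a ligand of CD47, rose 2.34-fold, from 24.4 ± 4.97 to 57.3 ± 0.288 (limma adjusted p = 7.0e-06). IGSF11, another VISTA ligand, stood at 59.5 ± 14.1 and 70.3 ± 11.5 normalized reads and LGALS9, galectin-9, at 83.5 ± 8.82 and 105 ± 9.44. IL23R, the receptor of interleukin-23, stood at 264 ± 15.6 and 299 ± 8.48, TNFSF14 at 10.8 ± 6.72 and 15.6 ± 2.78, and SIRPA, the CD47 receptor, at 8.27 ± 3.69 and 10.8 ± 1.56. Without control library 3, 6 of the partners passed, adding LGALS9 (limma adjusted p = 0.036), TNFSF14 (0.039) and IL23R (0.045). LGALS9 and IL23R also passed with the libraries scaled to total reads (limma adjusted p = 0.024 and 0.014).

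CD40, CD80 and IL23A are used as markers of M1 polarization. Of the 7 other M1 markers tested, among 22 analysed, 3 were called raised, 3 lowered and 1 missed the threshold (median 0.29). KYNU, which encodes kynureninase, was 2.16-fold lower with RBP4, at 808 ± 13.01 and 374 ± 21.4 normalized reads (limma adjusted p = 1.6e-24), and SOCS3, a brake on cytokine signalling, fell 1.78-fold, from 397 ± 35.3 to 223 ± 27.99 (limma adjusted p = 3.4e-12). IRF1, a transcription factor of the interferon response, rose 1.22-fold, from 126 ± 3.72 to 154 ± 14.5 (limma adjusted p = 0.045). The IRF1 call was lost without control library 1 (0.096), control library 2 (0.074), RBP4 library 1 (0.21) or RBP4 library 2 (0.088), with no filter (0.080), with the replicate block (0.051) and under DESeq2 (0.10); alternatives ran from 0.013 to 0.21. Of 12 M2 markers tested, 7 rose, 3 fell and 2 missed the threshold (median 0.32). FN1, fibronectin, rose 1.42-fold, from 1774 ± 20.6 to 2524 ± 85.6 (limma adjusted p = 3.2e-19). TGFB1 fell 1.36-fold, from 2884 ± 139 to 2120 ± 65.4 (limma adjusted p = 6.9e-17), and STAB1, the scavenger receptor stabilin-1, fell 1.43-fold, from 156 ± 15.4 to 110 ± 8.31 (limma adjusted p = 0.00060). Over all lists, each gene once, 106 genes were tested: 46 were called raised, 28 lowered and 32 missed the threshold (median 0.22). Over all genes tested, 24.5% were raised and 26.1% lowered, and among those averaging 25 to 500 normalized reads 31.4% and 13.3%. The 106 list genes were not limited to that abundance, with FN1 and TGFB1 among those above it. Of the 46, CD226 and the M1 marker GBP5 were under 10 normalized reads in every control library and entered the fit only through the RBP4 libraries.

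**Figure D3:**
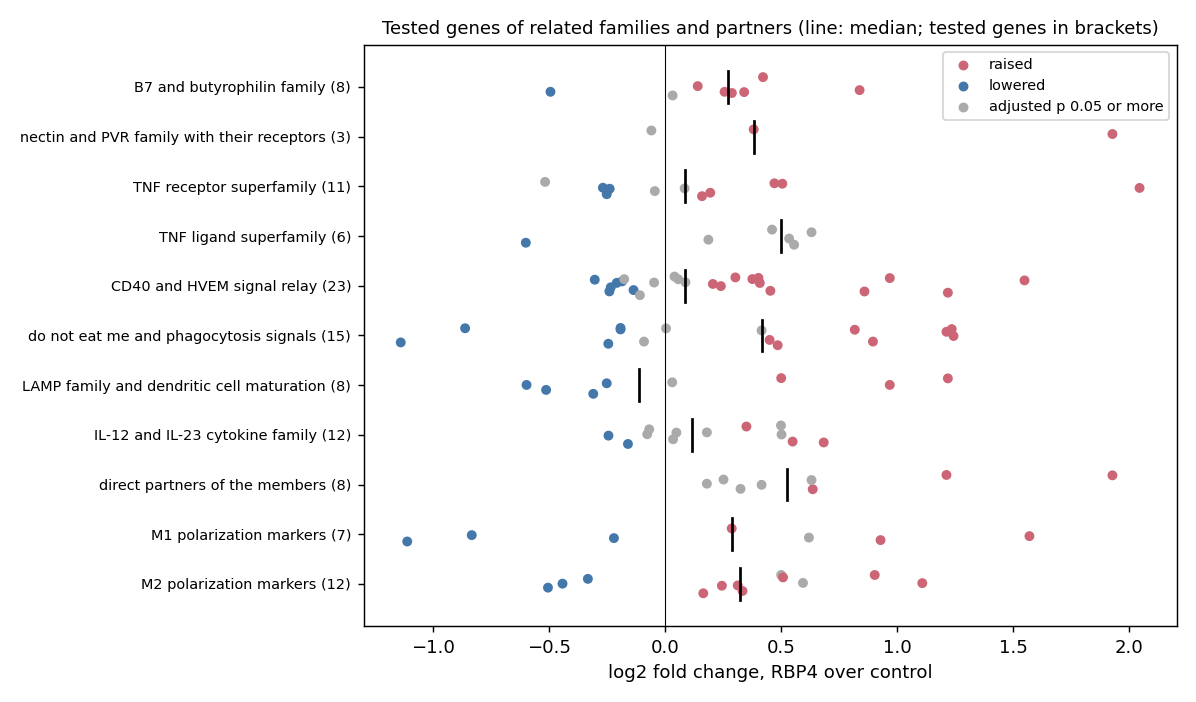
Log2 fold change (horizontal axis, RBP4 over control) of each tested gene in the lists of related families and partners, coloured by whether it was raised, lowered or not past an adjusted p of 0.05, with the median of each list as a black line. Both raised and lowered genes occur in each family and polarization list except the TNF ligands and the nectins, and the raised gene farthest to the right is TNFRSF9.

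Levels of different genes were compared as normalized reads per kilobase of gene length. This length counts every base in an exon of any annotated transcript. In the control libraries the order was NECTIN2, CD47, PVR, CD276, IL23A, CD80, VSIR, LAMP3, CD40 and TNFRSF14, from 556 ± 25.8 to 6.94 ± 0.156 per kilobase, an 80.1-fold span. NECTIN2 stood 3.32-fold above CD47, and PVR 2.39-fold above CD276. The library ranges of CD80 and VSIR, of VSIR and LAMP3, and of LAMP3 and CD40 overlapped, so the order among those neighbours is not resolved. In the RBP4 libraries the span was 57.5-fold. IL23A (89.3 ± 4.46 per kilobase) stood above CD276 (54.0 ± 5.32), and VSIR (52.5 ± 6.72) overlapped CD276. LAMP3, CD40 and CD80 overlapped as neighbours, at 28.3 ± 3.22, 25.5 ± 7.03 and 25.1 ± 2.87. By CPM without length, 4 of the 10 genes (NECTIN2, CD47, PVR and CD276) reached 10 CPM in all 6 libraries, 5 stayed below it in all 6, and VSIR went from 5.38 to 17.4 CPM. The order by CPM differed: in the control libraries TNFRSF14 (2.66 ± 0.0588 CPM) stood above CD40 (1.76 ± 0.341 CPM) without overlap.

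**Figure D4:**
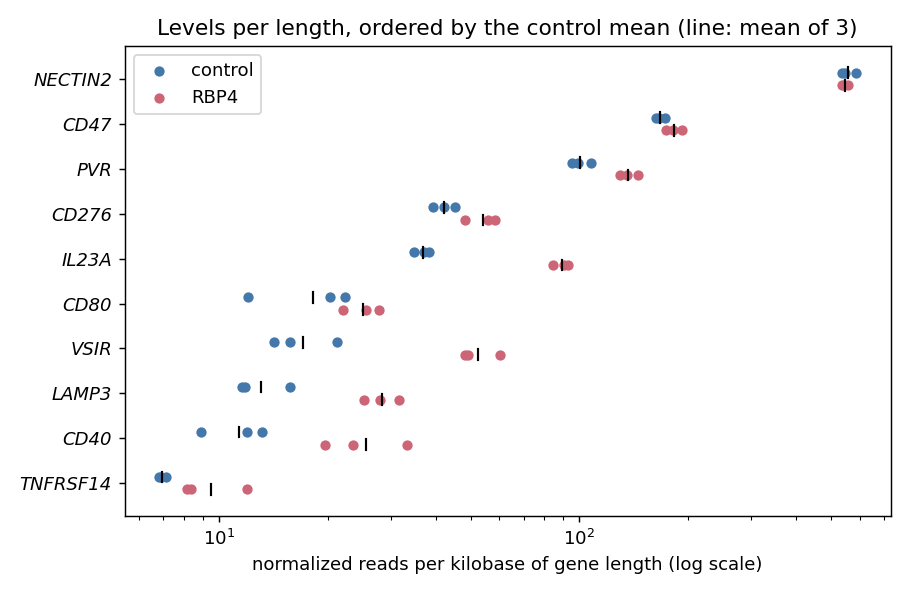
Normalized reads per kilobase of gene length (log axis) for each control and RBP4 library, genes ordered by the control mean, with short lines at the group means. NECTIN2 lies near 556 and 545 in the control and RBP4 libraries, TNFRSF14 near 6.94 and 9.48.

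The spread between libraries was set beside the SD that counting of reads alone would give. For VSIR the SD was 1.98 times that value in the control and 2.15 times in the RBP4 libraries, and for CD40 it was 1.01 and 2.26 times. CD80 had a ratio of 2.25 in the control libraries and 1.05 in the RBP4 libraries. IL23A had ratios of 0.322 and 0.526, and TNFRSF14 had 0.145 in the control against 1.78 in the RBP4 libraries; 3 libraries give an imprecise SD. Low reads limit 5 of the genes: CD80, CD40, TNFRSF14, LAMP3 and IL23A had 21 to 125 reads in each library. The VSIR control libraries, with 78, 108 and 68 reads, lay in the same range.

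Over the 6 libraries, the profiles most like that of VSIR, by Euclidean distance between log2 profiles centred on their means, were those of ARHGAP23 (0.334), ADAMTS10 (0.346) and LAMC1 (0.349) among 11810 genes averaging at least 50 normalized reads. ARHGAP23 went from 36.2 ± 4.402 to 117 ± 1.53 normalized reads and ADAMTS10 from 58.2 ± 9.27 to 179 ± 6.93. These values describe likeness of level patterns only.

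**Figure D5:**
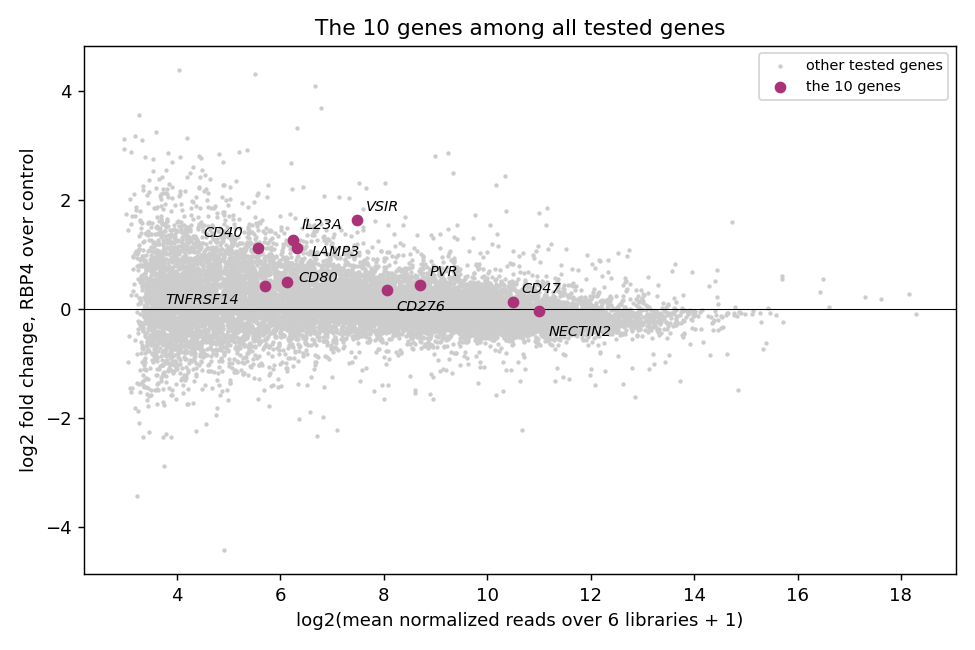
Log2 fold change, RBP4 over control, against the log2 mean normalized reads over 6 libraries, for the 10 genes (coloured and named) and the other tested genes (grey). The 4 genes with the highest values, VSIR, IL23A, CD40 and LAMP3, lie between 1.11 and 1.62, and CD47 and NECTIN2, the most abundant of the 10, lie near 0.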

How the data were processed

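RNA from 6 libraries was compared. Poly-T bead selection came first, and a NEBNext Ultra kit, which does not mark strand, was then used, per the labels' protocols. No aligner, counter or build is given in the sources used here; all 28847 gene identifiers had the start and end of GENCODE release 29 (GRCh38). The authors deposited a normalized signal per gene and library, beside their own group means, p-values (raw and adjusted) and log2 fold changes, per the file headers. Each signal value was a whole multiple of 1 step per library within 0.01 reads (100% of values), the form that counts take once scaled by a size factor. Reads recovered in this way gave depth and CPM, 15202000 to 16420517 reads per library.

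Genes that reached 10 in 3 or more libraries were fitted as log2(value + 1) with limma-trend, robust (R 4.3.3, limma 3.58.1), two-sided, with Benjamini-Hochberg adjustment over all genes tested and a threshold of 0.05. The fit was checked on simulated counts in which far fewer genes changed than were called here, with spread beyond counting set alike for all genes. Recovery was required only of the more abundant changed genes, so the check does not cover low genes or this many changes. Alternatives were pseudocounts of 0.5 and 5, other filters and scalings, edgeR 4.0.16 and DESeq2 1.42.0 on recovered reads, a replicate block, and each library left out. On the recovered reads, edgeR's quasi-likelihood test called 3961 genes raised and 3859 lowered. Groups and replicate numbers came from the titles. Members and lists were chosen with earlier results of these data known. Named genes were the 10 genes; binding partners averaging at least 10 normalized reads in either group; per list up to 3 genes past the threshold with the largest absolute log2 fold change among those averaging at least 50 in the higher group; and the 3 genes most like VSIR. Of the genes this rule gave, 1 is not reported here. In the marker check, 6 genes of each list were analysed, from 12 megakaryocyte, 12 T and NK cell, 8 B cell and 10 fibroblast and endothelial genes. Of the genes analysed, 1, 0, 0 and 0 reached 10 CPM in all 6 libraries. Protein sequences were not used here.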

Additional observations from a re-analysis of the deposited data

How the results depend on the processing

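The 16 alternatives, of which a filter of 50 could not fit CD40, gave 159 values for the 10 genes, of which 156 moved by less than the spread between replicates. NECTIN2 changed sign with scaling to total reads (0.039) and without control library 1 (0.0081); CD47 moved to 0.19 with scaling to total reads. The upward gaps numbered 8 to 9 over scalings and left-out libraries. For 40 other genes followed in the same way, 610 of 630 values kept their direction and side of the threshold, 15 lost their call, 5 gained one and none changed sign. Alternatives that gave a gene no value are not counted: CD226 and SIRPA had values for 12 of the 16, and TNFSF14 and CXCL8 for 15. Genes past the threshold in the nectin and PVR list numbered 1 with a filter of 50 and with DESeq2, and 0 to 2 with 1 library left out; in the TNF ligand list 1 to 3 with 1 library left out; and among direct partners 5 with no filter, 5 with scaling to total reads, and 2 to 6 with 1 library left out. IL23A stood at place 8 of the order by CPM, against 5 per length. Same-numbered libraries did not deviate together (correlations -0.024, -0.056 and -0.0056 over 11245 genes), and no control library correlated best with its own number. No pairing by number was seen, and whether same-numbered libraries were prepared together was not tested. The replicate block gave 3791 raised and 4038 lowered genes, against 3838 and 4096. At 21 to 125 reads per library, small differences of the 5 lowest genes were not resolved.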

Other observations

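The lists also held genes of antigen display by MHC class I, another surface signal that T and NK cells read; the genes in this paragraph were chosen after their values were seen. HLA-E, a class I gene read by NK cell receptors, rose 1.40-fold, from 1189 ± 5.38 to 1666 ± 42.7 (limma adjusted p = 1.1e-15), while B2M, the light chain of class I molecules, fell 1.14-fold, from 4366 ± 196 to 3818 ± 73.3 (limma adjusted p = 4.4e-07). Class I genes have similar sequences, so reads may be split among them. CALR, the calreticulin chaperone that also marks cells for uptake when at the surface, rose 1.76-fold, from 9237 ± 116 to 16282 ± 336 (limma adjusted p = 1.4e-41). CXCL8, the neutrophil chemokine interleukin-8, rose 1.93-fold, from 22.9 ± 3.24 to 44.2 ± 3.35 (limma adjusted p = 0.0011).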
